A study of Mus musculus with 162 samples.

Results

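The comparison asked whether daily injection of aGr1, an antibody that depletes neutrophils, changed the response of the spinal cord to MC903 on the skin of the back. Its members were defined by label, with earlier results of these data known, as wild-type spinal cord libraries of day 8: 14 from aGr1-injected mice (8 treated with MC903 and 6 with ethanol) and 9 from mice that received no injection (4 with MC903 and 5 with ethanol). These are 23 of the 162 RNA-seq libraries of the series, and 4 further spinal cord libraries from mice injected with PBS, the vehicle of the antibody (2 with MC903 and 2 with ethanol), served as a second control. The quantity of interest was the interaction, meaning the log2 effect of MC903 in aGr1 mice minus the log2 effect of MC903 in uninjected mice.

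All mice were adult C57BL/6 males. The paper names Charles River and Jackson Laboratories as sources of its wild-type mice, and its methods do not give the source of each group. MC903 (calcipotriol, a vitamin D analogue that causes an itchy, atopic dermatitis-like inflammation of skin) was applied once a day at 0.2 mM in ethanol, and control mice received the ethanol alone. The thoracic cord that serves the treated back skin was taken. The antibody was clone RB6-8C5 at 250 µg per day, given into the peritoneum from the day before MC903 began. This clone binds Ly6G on neutrophils and, to some extent, Ly6C on monocytes, so that the arm is a model of Gr1-positive cell depletion and not of neutrophil loss alone. PBS mice had the same injections without antibody, and uninjected mice had no handling of that kind, a difference that runs through every comparison of aGr1 with uninjected mice.

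Glucocorticoids are steroid hormones of the adrenal cortex that rise with stress, pain, itch, inflammation and the time of day. They enter glial cells and neurons of the cord and bind the glucocorticoid receptor, which then attaches to DNA as a dimer at an inverted repeat of the hexamer TGTTCT and switches on a stereotyped group of genes. Among these are Fkbp5, a co-chaperone that damps the receptor in a feedback loop, Tsc22d3 and Nfkbia, which restrain inflammatory signalling, and the metallothioneins Mt1 and Mt2, which bind zinc and copper.

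The promoters of this group that hold the receptor motif are shown because the glucocorticoid-responsive genes held the most interaction calls of any list. That list, like the others, was chosen with earlier results of these data known. RefSeq promoter windows of GRCm38.p6, reaching from 250 bases before to 50 after a gene start, were found for 21 of 24 list genes (32 windows). A loose form of the receptor motif, GNACANNNTGTNC, searched on both strands, was present in 4 of the 32 windows (12.5%) and in 156 of all 32851 windows (0.475%). The full palindrome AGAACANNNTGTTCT, which contains the loose form, was in 3 windows of the whole set (0.00913%), and 1 of these belonged to Sgk1. The single hexamer TGTTCT was in 5 of the 32 windows (15.6%) and in 6233 of all 32851. Of the 9 members with an interaction call, 8 had windows, and the loose form was in 1 of their 15 windows (6.67%), that of Sgk1. Mt1, Map3k6 and Tinagl1, the other genes printed here, had no interaction call by edgeR. The motif was chosen after the gene values were seen, so that these shares are a description. The 4 windows are printed 5′ to 3′ on the strand of the gene, with the loose motif in capitals, at chr10:21993640-21993939 (plus strand), chr8:94178839-94179138 (plus strand), chr4:133240568-133240867 (plus strand) and chr4:130174753-130175052 (minus strand). The motif begins 188, 94, 181 and 147 bases before the gene start, in that order.
Sgk1: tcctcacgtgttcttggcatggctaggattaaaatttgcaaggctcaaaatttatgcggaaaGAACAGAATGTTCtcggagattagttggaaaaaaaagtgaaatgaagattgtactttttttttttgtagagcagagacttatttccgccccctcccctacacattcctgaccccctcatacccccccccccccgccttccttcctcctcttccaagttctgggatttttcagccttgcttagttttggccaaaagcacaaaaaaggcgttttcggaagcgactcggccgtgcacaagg
Mt1: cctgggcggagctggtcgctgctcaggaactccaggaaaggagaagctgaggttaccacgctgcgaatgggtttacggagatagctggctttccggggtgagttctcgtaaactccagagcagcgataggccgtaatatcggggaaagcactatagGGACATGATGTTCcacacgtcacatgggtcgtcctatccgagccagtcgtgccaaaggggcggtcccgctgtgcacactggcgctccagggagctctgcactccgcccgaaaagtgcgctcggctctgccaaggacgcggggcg
Map3k6: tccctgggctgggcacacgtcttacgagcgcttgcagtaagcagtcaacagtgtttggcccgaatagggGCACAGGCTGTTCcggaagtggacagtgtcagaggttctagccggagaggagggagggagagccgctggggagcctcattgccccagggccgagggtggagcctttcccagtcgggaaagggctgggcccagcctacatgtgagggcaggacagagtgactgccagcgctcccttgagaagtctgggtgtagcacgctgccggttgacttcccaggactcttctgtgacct
Tinagl1: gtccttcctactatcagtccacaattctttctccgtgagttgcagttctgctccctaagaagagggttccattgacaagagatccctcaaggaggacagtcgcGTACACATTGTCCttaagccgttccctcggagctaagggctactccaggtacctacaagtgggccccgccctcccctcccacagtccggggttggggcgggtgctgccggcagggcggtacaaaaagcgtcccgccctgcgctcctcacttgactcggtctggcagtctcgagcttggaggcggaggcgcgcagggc

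Total counts on genes were 21595429 to 33924323 per library in the aGr1 arm, 25941277 to 50591655 in the uninjected arm and 25553916 to 32340057 in the PBS arm. Markers of neurons, astrocytes and oligodendrocytes were abundant in every library, with summed levels of at least 6458, 5717 and 20920.0 cpm (counts per 1000000 after TMM scaling). The names of the uninjected files carry a sequencer lane, while those of aGr1 and PBS files do not, and 9.42% to 14.3% of tallied reads fell outside genes in uninjected libraries against 16.7% to 21.5% in the others. Between ethanol libraries of aGr1 and uninjected mice, 8469 of 28747 genes were higher (29.5%) and 7269 lower (25.3%) and the median difference of all genes was log2 0.12. The arm and the way the files were named cannot be told apart in that contrast. The uninjected ethanol library of replicate 1 stood apart from the rest, so that counts are also given without it. In bulk tissue, fewer cells of a type and less RNA per cell cannot be told apart, and since nothing states that each library came from its own mouse, p-values describe the spread between libraries.

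No neutrophil marker passed the test as lower in aGr1 than in uninjected ethanol libraries (0 of 12 by edgeR, also at an unadjusted p under 0.05), and the summed levels of these markers ran higher. By flow cytometry the paper found fewer neutrophils in blood and cheek skin of MC903-treated mice given aGr1. Those counts were not of spinal cord. Over 12 neutrophil markers, the summed level was 23.4 to 69.2 (median 28.4) cpm in uninjected ethanol, 19.7 to 88.3 (median 29.2) in uninjected MC903, 38.8 to 138 (median 79.7) in aGr1 ethanol and 68.9 to 433 (median 132.3) in aGr1 MC903 libraries. PBS libraries lay at 30.6 to 40.1 cpm with ethanol and 25.7 to 58.2 cpm with MC903. S100a8, a calcium-binding protein abundant in neutrophils and chosen here after its values were seen, held 13.8 (lowest), 27.1 (median) and 78.3 (highest) cpm in aGr1 MC903 libraries and 2.84, 3.43, 3.58 and 17.95 cpm in uninjected MC903 libraries. Ly6g, the antibody target on neutrophils, stayed under 1 cpm in all 27 libraries. Among ethanol libraries, 6 of the 12 markers passed the test as higher in aGr1 than in uninjected mice (background 29.5%) and 0 did so against PBS mice (4 at an unadjusted p under 0.05), although the median difference was log2 1.48 there. Among MC903 libraries, 9 of the 12 passed as higher in aGr1 than in uninjected mice (background 27.2%), with a median of log2 2.02. Against the 2 PBS MC903 libraries 0 passed, and 10 were higher at an unadjusted p under 0.05 (4.09% of all genes). The median there was log2 2.23. The part of these transcripts in the results was not tested. By edgeR no marker of the 12 passed the interaction test, 0 had an unadjusted p under 0.05 and DESeq2 called 0, where the median was log2 1.05.

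MC903 changed the cord in both arms. In uninjected mice 2786 genes rose (9.69% of 28747 tested) and 3025 fell (10.5%). In aGr1 mice 539 rose (1.87%) and 1395 fell (4.85%), or 705 and 1054 when edgeR used RLE in place of TMM size factors. Of the 5811 genes called in uninjected mice, 1626 were also called in aGr1 mice (28% of the first list and 84.1% of the second), all of them in the same direction. Of the 5811, 5680 had the smaller absolute effect in aGr1 mice, although a list chosen on the uninjected effect favours that direction. Of the 1934 genes called in aGr1 mice, 426 had the smaller absolute effect in uninjected mice. The median standard error was log2 0.20 for the uninjected and 0.17 for the aGr1 effect, so that the aGr1 arm, with more libraries, was measured with the smaller error. The counts of the arms depended on the fit, since with each arm fitted on its own libraries alone they were 3118 in uninjected (1291 higher) and 3132 in aGr1 mice (1256 higher).

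The interaction itself was called for 153 genes (0.532%), of which 36 had a higher (0.125%) and the others a lower log2 effect (0.407%) in aGr1 mice. In 152 of the 153 the absolute effect was smaller in aGr1 mice, and 25 had opposite signs in the arms. A list chosen on the difference favours extreme values of the uninjected effect, which had the larger median error, so that these counts are a description. All lower genes had a positive effect in uninjected mice, called in all but 1, and all 36 higher genes had a negative one that was called. The count rested on single libraries: it was 55 without uninjected MC903 replicate 4, 62 without replicate 1 and 416 without replicate 3 of the same group, 90 and 75 without uninjected ethanol replicates 3 and 4, and 215 without uninjected ethanol replicate 1. Among aGr1 libraries it was 83, 60, 95 and 59 without ethanol replicates 2, 3, 5 and 6, and 72, 66, 76 and 231 without MC903 replicates 3, 4, 5 and 7.

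**Figure D1:**
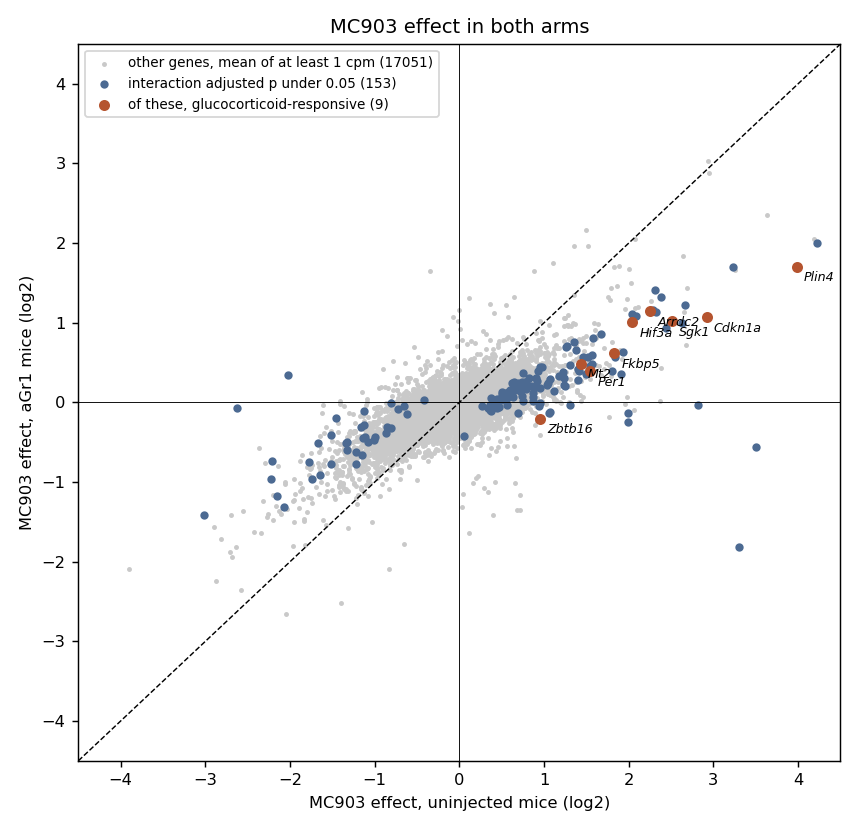
The log2 effect of MC903 in uninjected mice (x axis) is plotted against that in aGr1 mice (y axis) for each gene with a mean of at least 1 cpm, and for all 153 genes with an interaction adjusted p under 0.05 (blue, with 9 glucocorticoid-responsive genes in orange). The dashed line marks equal effects. In 152 of the 153 genes, which were chosen on the difference of the effects, the aGr1 effect is the smaller in size. The aGr1 effect of Plin4 is log2 1.70 against 3.98 in uninjected mice.

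Of the gene lists, the glucocorticoid-responsive genes held the most interaction calls, 9 against at most 2 in any other list. The lists differed in size and were chosen with earlier results of these data known, so that this rank is a description. Of 24 list members, all tested, 21 rose with MC903 in uninjected mice (background 9.69%), 13 in aGr1 mice (1.87%) and 12 in PBS mice (0.328% of 29280), and 0 fell in any arm. The median MC903 effect was log2 1.48 in uninjected, 1.40 in PBS and 0.68 in aGr1 mice, against 0.03, -0.01 and -0.01 over all genes. Of the 24, 9 passed the interaction test with a lower effect in aGr1 mice (background 0.407%): Plin4, Mt2, Cdkn1a, Fkbp5, Zbtb16, Hif3a, Arrdc2, Per1 and Sgk1. The interaction median over the list was log2 -0.88 and over all genes -0.03. Without uninjected ethanol replicate 1, 9 of 24 were called again with a median of -0.78, and leaving out each other library gave 7 to 12. The 9 calls of edgeR were 6 with robust empirical Bayes and 11 with DESeq2, which added Map3k6 and Nfkbia. With terms for the replicate number in the fit (the replicate block), the calls of Arrdc2, Hif3a, Per1, Sgk1 and Zbtb16 were lost.

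Plin4 (ENSMUSG00000002831, chr17:56100591-56109803 of GRCm38, minus strand), which encodes a coat protein of lipid droplets, had the largest interaction of the list. Its level was 4.18, 11.5, 11.9, 12.8 and 13.5 cpm in the 5 uninjected ethanol libraries and 149.6, 162, 186 and 186 cpm in the 4 uninjected MC903 libraries. With aGr1 it was 37.3 (lowest), 60.8 (median) and 85.6 (highest) cpm in ethanol and 130.03 (lowest), 202 (median) and 299.6 (highest) cpm in MC903 libraries. The MC903 libraries of both arms overlapped, whereas every aGr1 ethanol library lay above every uninjected ethanol library. MC903 raised Plin4 15.8-fold in uninjected mice (log2 3.98, SE 0.27, adjusted p = 3.41e-11) and 3.25-fold in aGr1 mice (log2 1.70, SE 0.20, adjusted p = 1.63e-06), an interaction of log2 -2.28 (SE 0.32, adjusted p = 0.00127). The 2 PBS ethanol libraries held 16.2 and 21.5 cpm and the 2 PBS MC903 libraries 131.3 and 239 cpm, so that PBS ethanol lay near uninjected ethanol and below all aGr1 ethanol libraries. Plin4 is also abundant in fat cells, and 6 adipocyte markers had median MC903 effects of log2 -2.69 in uninjected and -1.17 in aGr1 mice. Of these 6, 4 fell past the test in uninjected mice (background 10.5%), the other 2 had positive estimates there, and 1 fell in aGr1 mice (4.85%). Their summed level was 7.66 to 23.6 (median 9.20) cpm in uninjected ethanol, 2.33 to 4.01 (median 2.92) in uninjected MC903, 3.89 to 6.12 (median 5.01) in aGr1 ethanol and 1.23 to 2.70 (median 2.16) in aGr1 MC903 libraries, and their part in the Plin4 values was not tested.

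Zbtb16 (ENSMUSG00000066687, chr9:48654297-48836222 of GRCm38, minus strand), a zinc-finger transcriptional repressor, rose in uninjected and PBS mice and did not pass the test in aGr1 mice. Uninjected libraries held 29.9, 31.7, 35.1, 37.2 and 37.8 cpm with ethanol and 53.5, 59.6, 65.5 and 86.4 cpm with MC903. In aGr1 mice the ethanol libraries held 70.02 (lowest), 95.005 (median) and 128.1 (highest) cpm and the MC903 libraries 56.7 (lowest), 84.05 (median) and 111 (highest) cpm. Ethanol and MC903 libraries overlapped in the aGr1 arm and in neither other arm, and the aGr1 ethanol mean was the highest of all 6 groups. The MC903 effect was log2 0.95 in uninjected mice (SE 0.16, adjusted p = 1.01e-04) and -0.21 in aGr1 mice (SE 0.13, adjusted p = 0.454), with an interaction of -1.15 (SE 0.21, adjusted p = 0.00879). PBS libraries held 30.4 and 34.02 cpm with ethanol and 76.5 and 94.2 cpm with MC903.

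Fkbp5 (ENSMUSG00000024222, chr17:28399094-28517527 of GRCm38, minus strand), the feedback co-chaperone, showed a like arrangement of groups. Uninjected ethanol libraries spanned 27.8 to 29.3 cpm and uninjected MC903 libraries 93.8 to 110.5 cpm. The aGr1 libraries spanned 46.1 to 89.7 cpm with ethanol (median 70.7) and 68.97 to 129.2 cpm with MC903 (median 102). MC903 groups again overlapped between the arms, and ethanol groups did not. The effect was 3.55-fold in uninjected and 1.53-fold in aGr1 mice (interaction log2 -1.21, SE 0.20, adjusted p = 0.00500).

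**Figure D2:**
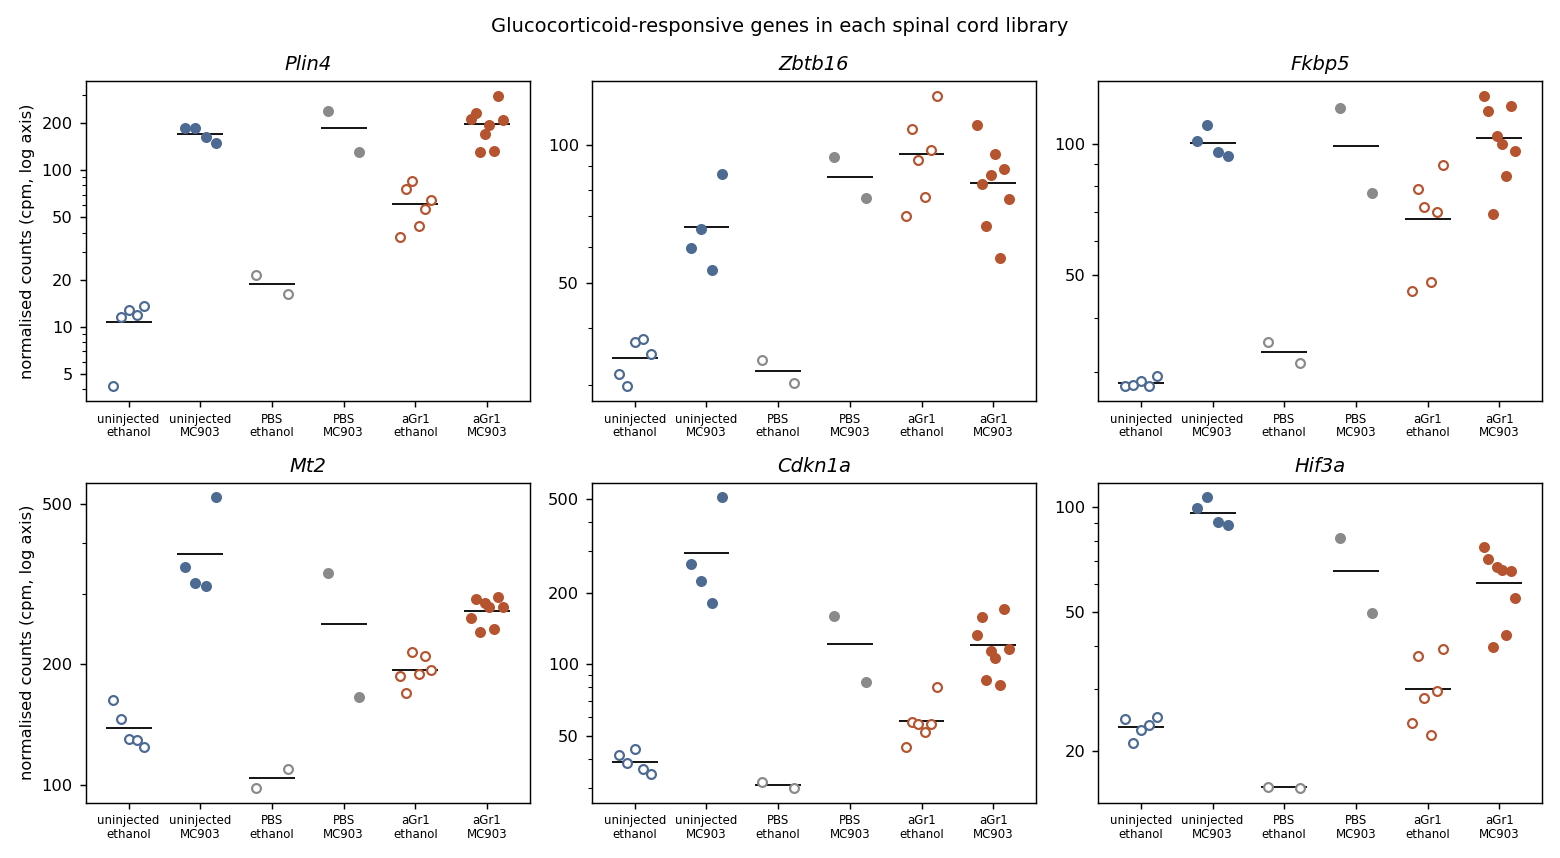
Normalised counts (cpm, log axis) of 6 glucocorticoid-responsive genes are plotted for each of 27 spinal cord libraries, with open circles for ethanol, filled circles for MC903 and a bar at the group mean. For Plin4, Zbtb16 and Fkbp5 all aGr1 ethanol libraries lie above all uninjected and PBS ethanol libraries, while for Cdkn1a and Hif3a the uninjected MC903 libraries lie above the aGr1 MC903 libraries.

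In Cdkn1a and Hif3a the arms differed more in their MC903 than in their ethanol libraries. Cdkn1a, which encodes the cell-cycle inhibitor p21, held 181, 224, 265 and 507 cpm in uninjected MC903 libraries against 81.997 (lowest), 114.8 (median) and 172 (highest) cpm in aGr1 MC903 libraries, with no overlap, and the PBS MC903 libraries (84.5 and 159 cpm) lay within the aGr1 range. Its ethanol means were 38.9 ± 3.84 (SD, n = 5), 57.7 ± 12.1 (n = 6) and 31.1 ± 1.38 cpm (n = 2) in uninjected, aGr1 and PBS mice (interaction log2 -1.85, SE 0.28, adjusted p = 0.00219). Hif3a, a hypoxia-inducible factor subunit, held 88.6, 90.8, 99.6 and 107 cpm in uninjected MC903 libraries and 39.6 (lowest), 65.8 (median) and 76.7 (highest) cpm in aGr1 MC903 libraries (interaction log2 -1.03, SE 0.21, adjusted p = 0.0185). For Mt2 both ends moved, with ethanol means of 139 ± 15.9 cpm in uninjected and 194 ± 16.3 cpm in aGr1 mice and MC903 means of 375 ± 98.4 and 271 ± 19.98 cpm (SD, n = 5, 6, 4 and 8; interaction log2 -0.95, SE 0.14, adjusted p = 0.00170).

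The remaining calls of the list were less firm. Arrdc2, an arrestin-domain gene, rose 4.77-fold in uninjected and 2.21-fold in aGr1 mice (interaction log2 -1.11, SE 0.23, adjusted p = 0.0265; adjusted p = 0.0801 without uninjected MC903 replicate 1). Per1, a clock gene that hormone also induces, had an interaction of log2 -1.16, SE 0.26, adjusted p = 0.0348, but 1 library set much of it: uninjected MC903 replicate 4 held 160.5 cpm and the other uninjected MC903 libraries 51.7, 60.9 and 68.2 cpm, and without it the value was -0.66 with an adjusted p of 0.0712. Its call was lost in 14 of 30 alternatives in all. Sgk1, a kinase that promotes sodium transport, had an interaction of log2 -1.49, SE 0.36, adjusted p = 0.0492 and lost its call in 22 of 30 alternatives, with adjusted p-values of up to 0.144. Its uninjected ethanol libraries were spread, at 46.97, 59.004, 83.6, 98.8 and 168 cpm.

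The other members did not pass the interaction test of edgeR. Those with the smallest interaction p were Map3k6, a stress-activated kinase (log2 -1.33, SE 0.33, adjusted p = 0.0635), Nfkbia (-0.75, adjusted p = 0.109), Klf9 (-0.62, adjusted p = 0.105) and Tsc22d3 (-0.40, adjusted p = 0.121). With DESeq2 Map3k6 (adjusted p = 0.0311) and Nfkbia (adjusted p = 0.0470) were called, and edgeR called Map3k6 without aGr1 ethanol replicate 1 or 4, aGr1 MC903 replicate 2 or 7 or uninjected MC903 replicate 3, and Nfkbia without aGr1 ethanol replicate 1. The following members were picked after their values were seen. Mt1 had an interaction of -0.72 (adjusted p = 0.125). Sult1a1, a sulfotransferase, was raised 6.23-fold in uninjected and 3.58-fold in aGr1 mice, and its interaction of -0.80 had a 95% interval of -1.33 to -0.28. Pdk4, which shifts metabolism away from glucose, rose in both arms (2.75-fold and 1.76-fold, interaction interval -1.05 to -0.25). Angptl4, a lipoprotein lipase inhibitor, was the only member with a positive interaction estimate (log2 0.07, interval -1.17 to 1.31) with group means of 0.799 to 5.69 cpm. Slc2a1, a glucose transporter, and Tinagl1, a matrix protein, showed no call for MC903 in any arm. Edn1 (-1.03), Galnt15 (-0.66), Xdh (-0.57) and Errfi1 (-0.38) had negative estimates as well, and Lcn2 is described with the astrocyte genes.

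**Figure D3:**
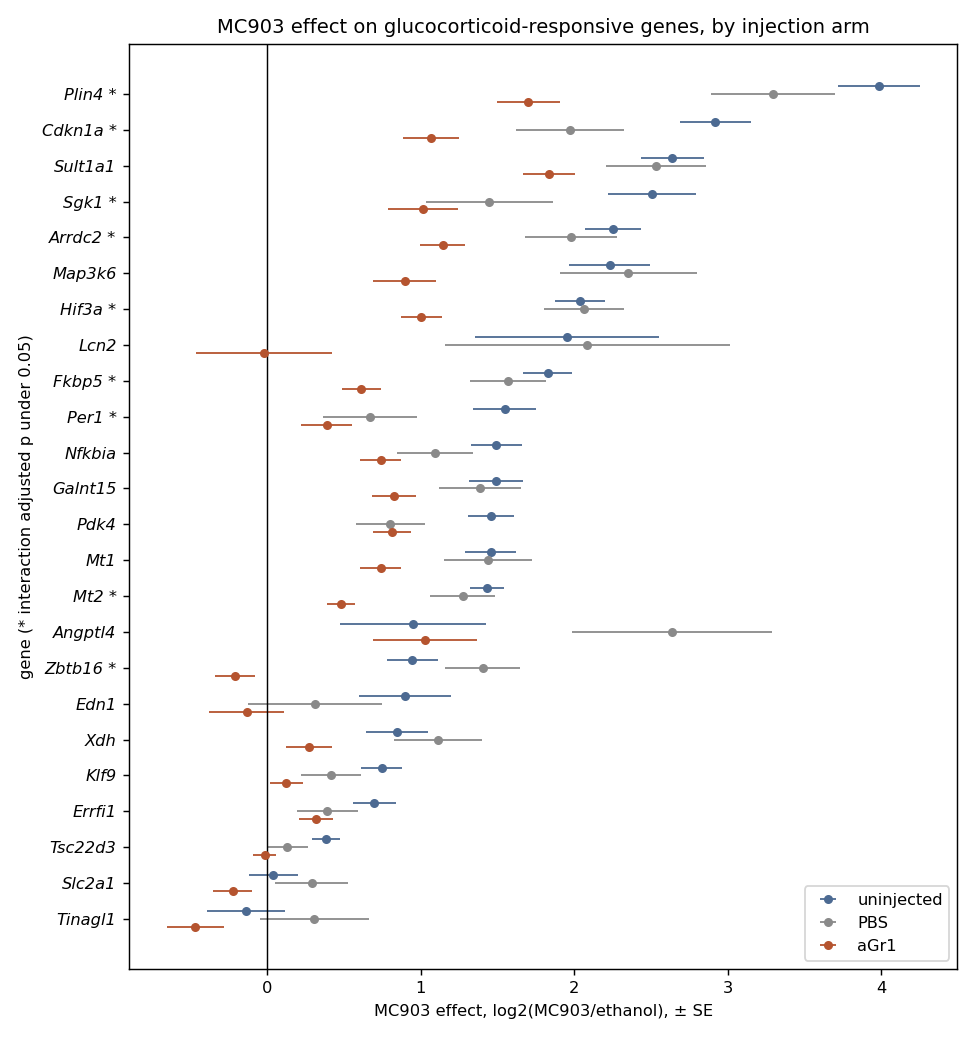
The log2 MC903 effect (± SE) of the 24 glucocorticoid-responsive genes is plotted for uninjected (blue), PBS (grey) and aGr1 mice (orange), with a star at genes whose aGr1 and uninjected effects differed at an adjusted p under 0.05. Of the 9 starred genes, the PBS value lies nearer to the uninjected value for Plin4, Fkbp5, Zbtb16, Arrdc2, Hif3a and Mt2 and nearer to the aGr1 value for Cdkn1a, Sgk1 and Per1.

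The PBS mice, which share the injections and the file naming of aGr1 mice, served as the second control for direction. MC903 raised 96 genes (0.328%) and lowered 84 (0.287%) in PBS mice, a total of 180 that was 55 and 50 without PBS ethanol replicates 1 and 2, 13 without PBS MC903 replicate 1 and 1375 without PBS MC903 replicate 2. No gene was called when the aGr1 effect was set against the PBS effect (0%; edgeR, 865 genes at an unadjusted p under 0.05, and 1 gene, Zbtb16, with DESeq2), where the median standard error was log2 0.36. In this contrast the list median was -0.74, 23 of 24 members were lower in aGr1 mice, and 12 of 24 were lower at an unadjusted p under 0.05, against 1.83% of all genes. That median was -0.35 without PBS MC903 replicate 1, -1.06 without PBS MC903 replicate 2 and -0.80 to -0.64 without each other aGr1 or PBS library. The 12 list members called for MC903 in PBS mice were 3 without PBS MC903 replicate 1, 7 and 6 without PBS ethanol replicates 1 and 2 and 12 to 14 without each other library, with PBS medians of 1.08 to 1.52. All 9 members called against uninjected mice kept their direction against PBS mice, 7 of them at an unadjusted p under 0.05. Zbtb16 stood first, at -1.61 (SE 0.27, adjusted p = 0.0581), and Plin4 was -1.59 (95% interval -2.47 to -0.72, adjusted p = 1). The 12 of 24 members lower against PBS mice at an unadjusted p under 0.05 rested on few libraries: they were 3 without PBS MC903 replicate 1, 7 without PBS ethanol replicate 2, 9 without PBS ethanol replicate 1 and 14 without PBS MC903 replicate 2. Without PBS MC903 replicate 2, 12 genes were called over all genes, among them Mt2 and Zbtb16, and 1 gene was called without aGr1 ethanol replicate 1 or 4 or aGr1 MC903 replicate 1 or 6.

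By treatment, the list had its calls between aGr1 and PBS mice among ethanol libraries. There all 24 members had a higher estimate in aGr1 than in PBS mice, 14 of them past the test (background 5.81%), with a median of log2 0.90. Among MC903 libraries 0 of 24 passed by edgeR, also at an unadjusted p under 0.05 (4 of 29280 genes in all, 0.0137%), 13 being higher and 11 lower in aGr1 mice, with a median of 0.08. For Plin4 the ethanol difference was log2 1.69, SE 0.34, adjusted p = 0.00495, while the MC903 difference was 0.09 (95% interval -0.50 to 0.68). For Zbtb16 these were 1.57 (adjusted p = 0.00120) and -0.04 (interval -0.42 to 0.34), and for Fkbp5 1.02 (adjusted p = 0.00558) and 0.06 (interval -0.33 to 0.45). Against uninjected mice, 15 of 24 members were higher and 2 lower in aGr1 ethanol libraries (background 29.5% and 25.3%), with a median of log2 0.61. Among MC903 libraries, 4 were higher and 12 lower in aGr1 than in uninjected mice (background 27.2% and 25.9%), with a median of -0.43. Against uninjected mice the list median was thus positive with ethanol and negative with MC903. Without uninjected MC903 replicate 4 the latter counts were 6 and 10 and the median -0.25.

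Mitochondrial transcripts also differed between aGr1 and PBS ethanol libraries. Of 9 such transcripts 8 were lower in aGr1 than in PBS ethanol libraries (background 6.29%; median log2 -0.79) and 0 past the test among MC903 libraries, where 8 were lower at an unadjusted p under 0.05 (median -0.47). Against uninjected mice, 3 were lower and 1 higher among ethanol libraries (background 25.3% and 29.5%). Among MC903 libraries 7 were lower and 1 higher than in uninjected mice (background 25.9% and 27.2%). Their summed level was 31430.0 to 40790.0 (median 35630.0) cpm in aGr1 ethanol, 41140.0 to 54030.0 (median 43700.0) in uninjected ethanol and 55210.0 to 61520.0 (median 58370.0) in PBS ethanol libraries. With MC903 it was 22340.0 to 52870.0 (median 35590.0), 44250.0 to 62540.0 (median 50160.0) and 39510.0 to 63160.0 (median 51340.0) cpm, in that order, and its part in the list values was not tested.

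The ethanol contrast of the glucocorticoid list with PBS depended on its 2 PBS libraries: the 14 calls became 2 without PBS ethanol replicate 2 and 0, with no gene called at all, without PBS ethanol replicate 1, while the median was 0.89 and 0.91. The MC903 contrast with PBS depended on its 2 PBS libraries as well. Without PBS MC903 replicate 1 it gave 2 list members higher in aGr1 mice, 20 higher and 4 lower estimates, a median of 0.37 and 2393 genes called. Without PBS MC903 replicate 2 it gave 6 higher and 18 lower estimates with a median of -0.14. Without aGr1 MC903 replicate 7, 12 estimates were higher and 12 lower. The 4 genes called over all genes were 225 without aGr1 MC903 replicate 2 and 7 without aGr1 ethanol replicate 5 or 6.

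Lcn2, Fos and Junb are the spinal cord genes that the study names. Lcn2, a lipocalin that reactive astrocytes secrete, held 2.21, 2.61, 3.28, 4.92 and 6.63 cpm in uninjected ethanol and 10.6, 11.4, 18.6 and 20.03 cpm in uninjected MC903 libraries. In aGr1 mice it held 3.27 (lowest), 11.1 (median) and 57.3 (highest) cpm with ethanol and 6.36 (lowest), 15.9 (median) and 48.4 (highest) cpm with MC903, and these aGr1 groups overlapped each other and both uninjected groups. MC903 raised Lcn2 in uninjected mice (log2 1.95, SE 0.60, adjusted p = 0.0201), the aGr1 effect was -0.02 (SE 0.44, adjusted p = 0.993), and the interaction did not pass the test of edgeR or DESeq2 (log2 -1.97, SE 0.74, adjusted p = 0.239). The aGr1 ethanol level was above both other ethanol groups (log2 2.34 over uninjected, adjusted p = 8.92e-04, and 3.13 over PBS, adjusted p = 0.0176). The MC903 means were 15.2, 9.56 and 19.5 cpm in uninjected, PBS and aGr1 mice. Lcn2 is also known as a glucocorticoid-responsive and as a neutrophil granule gene, and is a member of the glucocorticoid list.

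Junb and Fos, subunits of the AP-1 transcription factor that neuronal activity induces, rose in uninjected mice and were not called in aGr1 mice. Junb held 7.75, 8.63, 9.22, 10.2 and 10.5 cpm in uninjected ethanol and 11.9, 15.3, 15.97 and 22.5 cpm in uninjected MC903 libraries. In aGr1 mice it held 6.24 (lowest), 6.75 (median) and 8.12 (highest) cpm with ethanol and 4.88 (lowest), 6.98 (median) and 8.78 (highest) cpm with MC903. The uninjected groups did not overlap, and the aGr1 groups did. The interaction was log2 -0.80, SE 0.20, adjusted p = 0.0650 for Junb and log2 -0.49, SE 0.27, adjusted p = 0.459 for Fos, so that neither passed the test by edgeR. DESeq2 called Junb (log2 -0.78, adjusted p = 0.0226) and not Fos (adjusted p = 0.432), and edgeR called Junb without uninjected ethanol replicate 1 (adjusted p = 0.0462) or uninjected MC903 replicate 3 (adjusted p = 0.0149). In PBS mice the MC903 effect was 0.56 (SE 0.27, adjusted p = 0.590) for Junb and 0.05 (SE 0.33, adjusted p = 1) for Fos. Fos held 5.74 and 6.89 cpm in PBS ethanol and 5.62 and 7.39 cpm in PBS MC903 libraries, which overlapped.

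Of 36 activity-induced genes, 17 rose and 1 fell in uninjected mice, 4 rose and 1 fell in aGr1 mice, and 1 rose in PBS mice. The shares of all genes were 9.69% and 10.5% in uninjected, 1.87% and 4.85% in aGr1 and 0.328% higher in PBS mice. Csrnp1 and Nr4a1, both immediate early nuclear proteins, passed the interaction test of edgeR (2 of 36, background 0.407%), DESeq2 called Dusp1, Junb and Sik1 as well, and the list median was log2 -0.38. Csrnp1 held 20.8, 21.1, 22.4 and 42.1 cpm in uninjected MC903 libraries against 8.61 (lowest), 10.7 (median) and 13.2 (highest) cpm in aGr1 MC903 libraries (interaction log2 -1.09, SE 0.23, adjusted p = 0.0285). Nr4a1 held 15.99, 16.3, 20.5 and 36.4 cpm against 6.29 (lowest), 7.42 (median) and 11.2 (highest) cpm (interaction log2 -1.19, SE 0.25, adjusted p = 0.0292). The highest value of both genes belonged to uninjected MC903 replicate 4, without which the values were -0.78 (adjusted p = 0.0759) and -0.85 (adjusted p = 0.0880). Csrnp1 was also not called without aGr1 ethanol replicate 6 or uninjected ethanol replicate 4, nor Nr4a1 without either of these, aGr1 MC903 replicate 4 or uninjected MC903 replicate 1, with adjusted p-values of 0.0510 to 0.0599. Against PBS mice neither was called (-0.40, interval -1.04 to 0.24, and -0.36, interval -1.06 to 0.34).

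**Figure D4:**
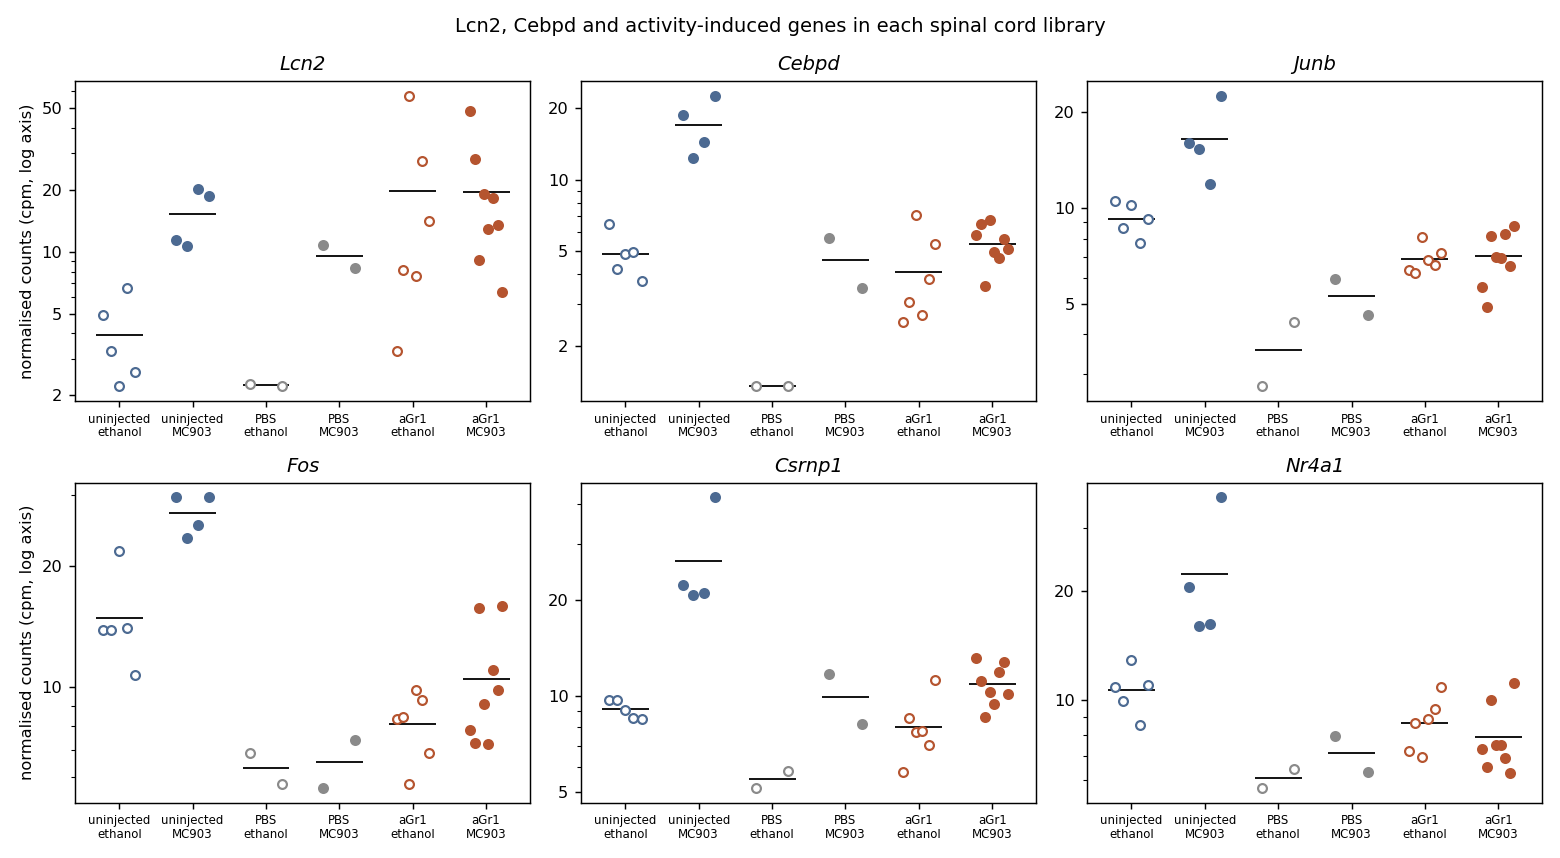
Normalised counts (cpm, log axis) of Lcn2, Cebpd and 4 activity-induced genes are plotted for each of 27 spinal cord libraries, with open circles for ethanol, filled circles for MC903 and a bar at the group mean. Uninjected MC903 libraries stand above the other groups for Junb, Fos, Csrnp1 and Nr4a1, whereas Lcn2 in aGr1 ethanol libraries reaches 57.3 cpm.

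Among 28 reactive astrocyte genes, Cebpd and Il6ra passed the interaction test of edgeR with a lower effect in aGr1 mice (2 of 28, background 0.407%), and DESeq2 called Cd44 as well. Cebpd, a transcription factor of acute phase responses, held 12.4, 14.3, 18.6 and 22.6 cpm in uninjected MC903 libraries and 3.57 (lowest), 5.36 (median) and 6.77 (highest) cpm in aGr1 MC903 libraries, and its PBS levels ran from 1.35 and 1.36 cpm with ethanol to 3.50 and 5.66 cpm with MC903 (interaction log2 -1.41, SE 0.31, adjusted p = 0.0311). Il6ra, the interleukin-6 receptor, had an interaction of log2 -0.83, SE 0.19, adjusted p = 0.0436. The Cebpd call was lost in 11 and the Il6ra call in 18 of 30 alternatives, most of them the removal of 1 library, with adjusted p-values of up to 0.174 and 0.224. Over the whole list 7 genes rose and 7 fell in uninjected mice, and 2 rose and 4 fell in aGr1 mice, where the shares of all genes were 9.69% and 10.5% and 1.87% and 4.85%.

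Beyond these lists, the lower interaction calls of smallest p included genes of metabolism and of immune cells. Slc25a13, the mitochondrial aspartate-glutamate carrier, rose in uninjected mice from 13.9 ± 2.66 (SD, n = 5) to 29.1 ± 4.39 cpm (n = 4) and was 16.4 ± 1.70 (n = 6) and 15.1 ± 2.01 cpm (n = 8) in aGr1 mice (interaction log2 -1.18, SE 0.17, adjusted p = 0.00127). Ddc, which makes dopamine and serotonin from their precursors, rose 5.20-fold in uninjected, 3.35-fold in PBS and 2.50-fold in aGr1 mice (interaction log2 -1.06, SE 0.19, adjusted p = 0.00879). Smox, a spermine oxidase, and Pla2g3, a secreted phospholipase, had interactions of -0.53 (adjusted p = 0.00170) and -1.12 (adjusted p = 0.00536). Itgad, an integrin of macrophages, held 6.93, 7.18, 7.93 and 8.09 cpm in uninjected MC903 and 3.05 (lowest), 4.36 (median) and 5.40 (highest) cpm in aGr1 MC903 libraries (interaction log2 -1.64, SE 0.25, adjusted p = 0.00235), and Il12rb1, an interleukin-12 receptor subunit, had an interaction of -1.44 (adjusted p = 0.00536). Rab31, a trafficking GTPase, Cdr2l, and Phyhd1, a dioxygenase, had values of -0.56, -0.51 and -0.90 (adjusted p = 0.00317, 0.00317 and 0.0102).

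For Gm38271 and Wdfy1 PBS mice lay near aGr1 mice. Gm38271, an unnamed gene model, held 51.5, 82.2, 82.8 and 88.7 cpm in uninjected MC903 libraries, while the group means of all 5 other groups lay between 32.1 and 41.05 cpm (interaction log2 -1.04, SE 0.15, adjusted p = 0.00127). Its PBS effect was 0.15 and its aGr1 effect 0.21, so that the aGr1 minus PBS value was 0.06 (interval -0.33 to 0.45). Wdfy1, an endosomal adaptor of Toll-like receptors, held 17.4 to 22.3 cpm in uninjected ethanol libraries against 62.2 to 66.6 cpm in aGr1 and 79.6 and 80.4 cpm in PBS ethanol libraries (interaction log2 -0.59, SE 0.09, adjusted p = 0.00170). Wdfy1 and Igfbp4 were the 2 genes whose MC903 effect differed between PBS and uninjected mice (-0.81, adjusted p = 0.0186, and 1.11, adjusted p = 0.0353). This count of 2 was 0 without PBS ethanol replicate 1 or 2, PBS MC903 replicate 1 or uninjected MC903 replicate 1, and 1 without uninjected ethanol replicate 1, 3, 4 or 5 or uninjected MC903 replicate 2 or 4. It was 4 without uninjected MC903 replicate 3.

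Of the 36 genes with a higher interaction, all of which fell in uninjected mice, 34 had a smaller negative estimate in aGr1 mice and 2 a positive one that was not called there. Aplnr, the apelin receptor of endothelial cells, fell from 55.6 ± 4.59 (SD, n = 5) to 6.83 ± 2.05 cpm (n = 4) in uninjected mice and from 28.3 ± 4.49 (n = 6) to 10.6 ± 3.70 cpm (n = 8) in aGr1 mice (interaction log2 1.61, SE 0.28, adjusted p = 0.00602). Its MC903 libraries overlapped between the arms, at 4.501 to 9.34 and 5.04 to 17.4 cpm, and its ethanol libraries did not. Igfbp4, which binds insulin-like growth factors, was lower in aGr1 than in uninjected libraries under both treatments without overlap, with ethanol levels of 84.1 to 94.4 and 24.4 to 35.9 cpm and MC903 levels of 21.2 to 22.7 and 9.84 to 15.6 cpm in uninjected and aGr1 mice (interaction log2 0.75, SE 0.14, adjusted p = 0.00949). Ccnd1, cyclin D1, differed at the other end, with MC903 levels of 9.98, 10.4, 11.5 and 14.5 cpm in uninjected and 16.95 (lowest), 22.5 (median) and 27.8 (highest) cpm in aGr1 libraries and ethanol levels that overlapped (interaction log2 0.84, SE 0.15, adjusted p = 0.00949). The PBS MC903 libraries held 18.98 and 25.7 cpm of Ccnd1, within the aGr1 range.

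Other genes of this direction were Kcna6 (0.70, adjusted p = 0.00879) and Kcnk13 (1.02, adjusted p = 0.0210), which encode potassium channels, the guidance receptor Nrp1 (0.60, adjusted p = 0.0285) and the protease inhibitor Serpinb1a (0.98, adjusted p = 0.0210). Prss35 (1.17), Mob3b (0.73), Gm15663 (0.69), Dpy19l1 (0.49) and Gas7 (0.45) completed the 12 of smallest p, with adjusted p-values of 0.0185 to 0.0299. Single libraries ended several of these calls. Without uninjected MC903 replicate 4, the log2 difference of the MC903 effects in Kcnk13 was 0.95 (adjusted p = 0.0691), Serpinb1a 0.91 (adjusted p = 0.0691), Prss35 1.01 (adjusted p = 0.0759), Mob3b 0.72 (adjusted p = 0.0734) and Dpy19l1 0.46 (adjusted p = 0.0558). Without uninjected MC903 replicate 1, that difference was in Nrp1 0.62 (adjusted p = 0.0578), Gas7 0.44 (adjusted p = 0.0764) and Gm15663 0.60 (adjusted p = 0.0911). Among markers of vessels and coverings of the cord, 3 of 6 endothelial and 5 of 9 meningeal and fibroblast markers fell in uninjected mice (background 10.5%). In aGr1 mice 1 and 3 of them fell (background 4.85%), and 1 endothelial marker rose (1.87%). The medians were log2 -0.42 and -1.22 in uninjected and -0.16 and -0.90 in aGr1 mice. The part of these markers in the values above was not tested. Of 33 potassium and sodium channel genes, Kcna6 passed in this direction and Kcnk1 in the other (log2 -0.46, SE 0.09, adjusted p = 0.0268).

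Several of the MC903 responses of smallest p were called in both arms without an interaction call by edgeR, and their intervals limit how far the arms could differ. Etnppl, an astrocyte enzyme of phospholipid metabolism, rose 3.64-fold in uninjected, 3.16-fold in PBS and 2.75-fold in aGr1 mice, and its interaction interval was -0.67 to -0.15 (adjusted p = 0.15001). Itih3, a hyaluronan-binding protein component (2.38-fold and 2.08-fold, interval -0.42 to 0.03), Fam107a (2.49-fold and 1.95-fold, interval -0.59 to -0.11) and the angiotensin precursor Agt (2.52-fold and 1.999-fold, interval -0.59 to -0.09) also rose in both arms, with interaction adjusted p-values of 0.4664, 0.173 and 0.218. Among genes that fell, Myoc changed by -2.69 and -1.94, Piga, which starts the synthesis of membrane lipid anchors, by -1.34 and -1.11, and Enpp1, a nucleotide pyrophosphatase, by -1.78 and -1.18 in uninjected and aGr1 mice. Their interaction estimates of 0.75, 0.23 and 0.60 had adjusted p-values of 0.166, 0.467 and 0.0613, and DESeq2 called Enpp1 (adjusted p = 0.0115).

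Members of several lists fell with MC903 in both arms, where 10.5% of all genes fell in uninjected, 4.85% in aGr1 and 0.287% in PBS mice. Of 21 cholesterol synthesis genes 17 fell in uninjected, 18 in aGr1 and 3 in PBS mice. Of 13 microglial markers 11 fell in uninjected, 12 in aGr1 and 0 in PBS mice. Of 22 heat shock and unfolded protein genes 12 fell and 1 rose in uninjected mice and 13 fell in aGr1 mice, while 0 fell and 1 rose in PBS mice. At an unadjusted p under 0.05, 18, 1 and 5 members of these 3 lists fell in PBS mice (4.13% of all genes). The PBS medians were log2 -0.45, -0.20 and -0.19. By edgeR the interaction gave 0 calls in each of these lists, with 7, 6 and 7 members at an unadjusted p under 0.05. Over all genes 13% had such a p, 5.09% with a higher interaction. All 7 cholesterol synthesis genes and all 6 microglial markers with such a p had a higher interaction. Of the heat shock genes, 5 were higher and 2 lower. DESeq2 called 1 microglial marker, Aif1, and none of the cholesterol synthesis and heat shock lists. Among 10 oligodendrocyte and myelin genes 7 fell in uninjected, 7 in aGr1 and 1 in PBS mice (7 there at an unadjusted p under 0.05). Mog, a myelin surface protein, fell less in aGr1 than in uninjected mice (interaction log2 0.57, SE 0.12, adjusted p = 0.0311). That call was lost in 10 of 30 alternatives, each the removal of 1 library, while DESeq2 also called Opalin and Ugt8a. Of 29 interferon-induced genes 19 fell in uninjected and 7 in aGr1 mice, with medians of -0.86 and -0.39, and 1 passed the interaction test, Oasl2 (log2 1.01, SE 0.24, adjusted p = 0.0419), which lost its call in 18 of 30 alternatives. In PBS mice 0 of the 29 interferon-induced genes fell past the edgeR test, 2 fell at an unadjusted p under 0.05, and their median was -0.25.

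The spinal itch circuit genes, which hold the peptides and receptors that relay itch in the dorsal horn, gave 0 interaction calls of 28 tested by edgeR, 4 at an unadjusted p under 0.05 and 0 calls with DESeq2. Over all genes 13% had an unadjusted interaction p under 0.05 by edgeR, which is the background of each such count in this paragraph. In uninjected mice 2 of them were higher and 3 lower (background 9.69% and 10.5%), and 2 were higher in aGr1 mice (1.87%). Of 18 circadian clock genes Per1 alone passed the interaction test with either tool, and 9 rose and 1 fell in uninjected mice against the same shares of all genes. The vitamin D response genes gave 0 calls among 8 tested of 10 with either tool and 2 at an unadjusted p under 0.05, and 2 were higher in uninjected mice. In the lists of microglial activation (20), chemokines and cytokines (41), synapses and transmitter receptors (34) and Hox genes (23) edgeR gave 0 interaction calls each, with 3, 8, 1 and 1 members at an unadjusted p under 0.05, and DESeq2 called Il33 among the cytokines and Grin2c among the transmitter receptors.

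**Figure D5:**
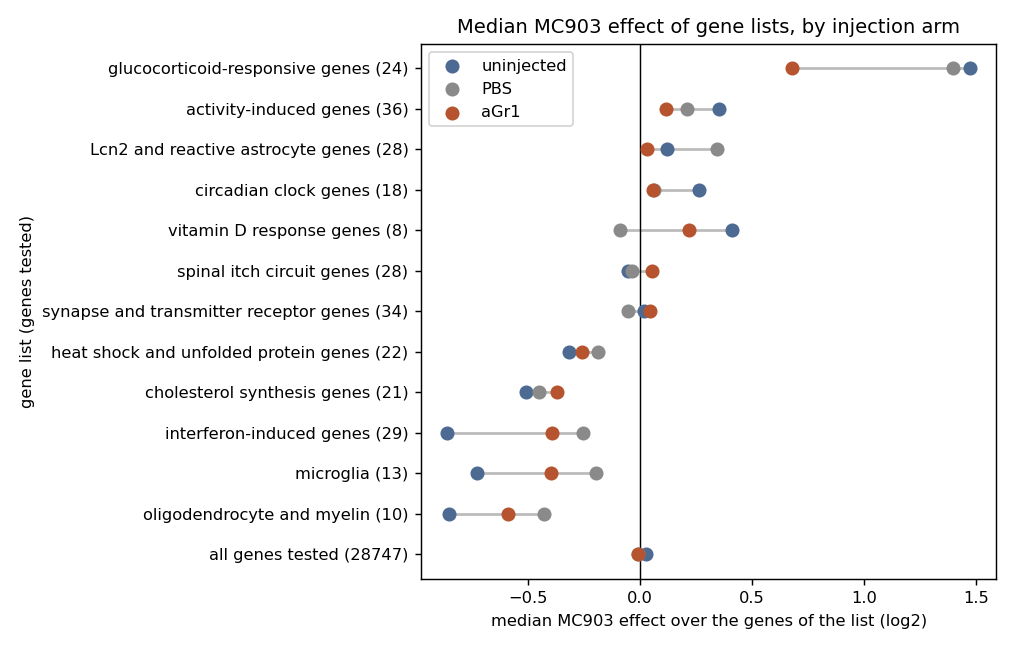
The median log2 MC903 effect over the tested genes of 12 lists and over all genes is plotted for uninjected (blue), PBS (grey) and aGr1 mice (orange). The glucocorticoid-responsive list has medians of 1.48, 1.40 and 0.68, in that order, whereas for interferon-induced, microglial and myelin genes the PBS median lies nearest to 0.

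Over all interaction calls, PBS effects lay nearer to aGr1 than to uninjected effects more often than not. Of the 153 genes, the PBS effect was nearer to the uninjected effect in 38 and nearer to the aGr1 effect in the others. Within the 9 glucocorticoid calls it was nearer to the uninjected effect in 6, and in the other 144 calls in 32. Of those 144, 19 had the sign of the interaction and an unadjusted p under 0.05 when aGr1 was set against PBS. When PBS was set against uninjected mice, 90 of the 144 and 3 of the 9 had that sign and an unadjusted p under 0.05. Over all genes, 2.95% and 8.55% had such a p in these 2 contrasts, in either direction. The calls share the aGr1 libraries with the contrast of aGr1 and PBS, and the uninjected libraries with that of PBS and uninjected mice. Their choice on the difference of aGr1 and uninjected effects also favours extreme uninjected effects. PBS effects rested on 2 libraries per group, so that the closeness of single genes was not tested.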

How the data were processed

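RNA-seq of spinal cord libraries (poly(A)-selected, single-end) was deposited as raw read counts per Ensembl gene. The authors aligned reads to mm10 and counted them with HTSeq; the submitters' processing notes also name Bowtie2, TopHat and TopHat2, and the strand setting and annotation release were not given in the sources used here. Of 46078 listed genes, 45143 were matched to names in GENCODE release M21 and 935 were not. Groups came from the labels.

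Counts were fitted with edgeR 4.0.16 in R 4.3.3 (TMM, glmQLFit and glmQLFTest, genes with at least 10 counts in total, Benjamini-Hochberg adjustment over all genes tested, threshold 0.05). The aGr1 and uninjected effects and their interaction came from 23 libraries (28747 genes), and contrasts with PBS from all 27 (29280 genes). Intervals are 95%. DESeq2 1.42.0, other size factors, filters, a replicate block and the removal of each library were alternatives. Contrasts among MC903 libraries alone and the list counts without single libraries or with DESeq2 were chosen after seeing the data. No 2 libraries of a group agreed within sampling noise.

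The members and the 32 gene lists were chosen with earlier results of these data known. Named genes were Lcn2, Fos and Junb, list members past the interaction threshold, and 2 sets of genes with means of at least 1 cpm. These sets were the 12 genes per direction of smallest interaction p and the 5 per direction and arm of smallest MC903 p. Up to 4 more members per list by interaction p came from the glucocorticoid, activity-induced, reactive astrocyte and interferon lists only. Shared or overlapping genes, and antisense pairs, may exchange reads in such counts.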

Additional observations from a re-analysis of the deposited data

Results flagged for a closer look

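Of 260 groups of 4 to 8 libraries tested over 65 named genes, 24 held a library set apart from the others of its group by Dixon's test at its 95% critical value, against 5% of groups by chance. The values are in cpm, each followed by the range of the other libraries. The aGr1 ethanol library of replicate 6 was highest for Arrdc2 at 47.6 (19.4 to 27.3), highest for Cdkn1a at 80.6 (44.7 to 56.97), highest for Cebpb at 4.46 (2.52 to 3.14) and highest for Dusp1 at 17.01 (12.6 to 14.1). The uninjected MC903 library of replicate 2 was lowest for Cd44 at 16.03 (18.8 to 19.3). The uninjected MC903 library of replicate 4 was highest for Cebpb at 6.77 (5.60 to 5.75), highest for Csrnp1 at 42.1 (20.8 to 22.4), highest for Kcnk1 at 292 (223 to 231), highest for Per1 at 160.5 (51.7 to 68.2), highest for Piga at 20.9 (17.4 to 17.9) and highest for Sik1 at 44.2 (26.02 to 28.1). The uninjected MC903 library of replicate 3 was highest for Dpy19l1 at 141 (117.4 to 121.4), highest for Kcnk13 at 11.6 (7.03 to 7.63) and highest for Mog at 256 (193 to 199). The uninjected ethanol library of replicate 1 was highest for Enpp1 at 76.5 (57.9 to 61.8), highest for Opalin at 123.005 (73.3 to 83.4), lowest for Phyhd1 at 3.47 (5.52 to 6.11), lowest for Piga at 35.7 (48.1 to 50.1), lowest for Plin4 at 4.18 (11.5 to 13.5) and highest for Serpinb1a at 70.4 (42.3 to 50.2). The aGr1 MC903 library of replicate 6 was highest for Oasl2 at 9.64 (5.68 to 7.05). The aGr1 ethanol library of replicate 1 was highest for Opalin at 43.8 (27.6 to 33.3) and highest for Rsad2 at 2.76 (1.44 to 1.71). The aGr1 ethanol library of replicate 2 was highest for Wdfy1 at 66.6 (62.2 to 63.8).

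The MC903 effect differed between aGr1 and uninjected mice by the edgeR interaction test for 39 of the 65 named genes. The log2 difference was negative for Plin4 (-2.28), Cdkn1a (-1.85), Itgad (-1.64), Sgk1 (-1.49), Il12rb1 (-1.44), Cebpd (-1.41), Fkbp5 (-1.21), Nr4a1 (-1.19), Slc25a13 (-1.18), Per1 (-1.16), Zbtb16 (-1.15), Pla2g3 (-1.12), Arrdc2 (-1.11), Csrnp1 (-1.09), Ddc (-1.06), Gm38271 (-1.04), Hif3a (-1.03), Mt2 (-0.95), Phyhd1 (-0.90), Il6ra (-0.83), Wdfy1 (-0.59), Rab31 (-0.56), Smox (-0.53), Cdr2l (-0.51) and Kcnk1 (-0.46). It was positive for Gas7 (0.45), Dpy19l1 (0.49), Mog (0.57), Nrp1 (0.60), Gm15663 (0.69), Kcna6 (0.70), Mob3b (0.73), Igfbp4 (0.75), Ccnd1 (0.84), Serpinb1a (0.98), Oasl2 (1.01), Kcnk13 (1.02), Prss35 (1.17) and Aplnr (1.61).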

How the results depend on the processing

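Precision was limited by 4 and 5 uninjected and 2 and 2 PBS libraries and by the coincidence of injection and file naming. For 65 named genes under 30 alternatives each, 1764 interaction values kept their call and direction, 151 lost the threshold, 35 gained it and 0 reversed, and 18 of the 39 called genes were called in every alternative. The causes of the following changes were not tested. The 153 interaction calls became 465 with DESeq2 (200 higher), and edgeR's filterByExpr gave 147 with 58 higher against 36. The uninjected count of 5811 became 3118 and the aGr1 count of 1934 became 3132 when each arm was fitted alone, and the share of higher calls in aGr1 mice rose with filterByExpr (798 of 1990) and DESeq2 (991 of 2362). The ethanol contrast fell from 15738 genes to 3541 when PBS replaced uninjected mice. The PBS count of 180 became 361 with DESeq2 and 0 on the 4 PBS libraries alone. The aGr1 minus PBS count of 0 became 1 with DESeq2 and 1 with no filter, Zbtb16 in both. The PBS minus uninjected count of 2 became 5 with DESeq2 and 1 on 13 libraries.

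Replicate numbers are shared by groups, but same-numbered libraries did not deviate together (r from -0.15 to 0.268 in aGr1, -0.178 to 0.0175 in uninjected and -0.431 in PBS mice). Of libraries with a same-numbered partner, only MC903 replicate 2 and ethanol replicate 6 of the aGr1 arm correlated best with their own number. With the replicate block the interaction gave 62 calls (4 of the 9 glucocorticoid-responsive calls, those of Plin4, Mt2, Cdkn1a and Fkbp5), the uninjected arm 4612, the aGr1 arm 935, aGr1 minus PBS 0 and PBS minus uninjected 0. With the PBS numbers crossed in the replicate block, PBS gave 182 calls, aGr1 minus PBS 0 and PBS minus uninjected 0.

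Leaving out in turn each library of the groups compared gave 55 to 416 interaction calls. The counts were 4710 to 6236 in uninjected, 1439 to 2059 in aGr1 and 13 to 1375 in PBS mice. They were 0 to 12 for aGr1 minus PBS, 0 to 4 for PBS minus uninjected and 15088 to 15394 for aGr1 against uninjected ethanol libraries. The ethanol count was 15538 to 16019 when the MC903 libraries of the same fit were left out in turn.

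Of the 39 named genes called for the difference of the MC903 effects, single libraries ended these numbers of calls: 1 without aGr1 ethanol replicate 1, 5 without aGr1 ethanol replicate 2, 11 without aGr1 ethanol replicate 3, 2 without aGr1 ethanol replicate 4, 5 without aGr1 ethanol replicate 5, 12 without aGr1 ethanol replicate 6, 2 without aGr1 MC903 replicate 1, 1 without aGr1 MC903 replicate 2, 8 without aGr1 MC903 replicate 3, 9 without aGr1 MC903 replicate 4, 6 without aGr1 MC903 replicate 5, 3 without aGr1 MC903 replicate 6, 4 without aGr1 MC903 replicate 8, 5 without uninjected ethanol replicate 2, 6 without uninjected ethanol replicate 3, 9 without uninjected ethanol replicate 4, 5 without uninjected ethanol replicate 5, 13 without uninjected MC903 replicate 1, 6 without uninjected MC903 replicate 2 and 14 without uninjected MC903 replicate 4. The adjusted p-values then lay between 0.0501 and 0.141. The replicate block ended 15 calls, of Arrdc2, Cebpd, Csrnp1, Gas7, Gm15663, Hif3a, Il6ra, Itgad, Kcnk1, Nr4a1, Nrp1, Oasl2, Per1, Sgk1 and Zbtb16.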
